A study of Mus musculus with 3 samples.

Results

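Dppa2, Dppa3, Dppa4, Dppa5a, Utf1, Tdgf1, Lin28a, L1td1 and Gdf3 are 9 protein-coding genes known as markers of undifferentiated mouse embryonic stem (ES) cells. They were chosen by gene symbol from the 26887 genes counted in any of 3 RNA interactome analysis and sequencing (RIA-seq) libraries, and all 9 were found in every library. Undifferentiated E14 ES cells of the 129/Ola strain had been grown on gelatin without feeder cells, in medium with 15% fetal bovine serum and 1000 U/ml of leukaemia inhibitory factor, and fixed with 1% glutaraldehyde for 10 min. Their sonicated lysate was hybridized at 37 °C overnight with antisense oligonucleotides, which were recovered on streptavidin beads together with the RNAs held to them. Oligonucleotides against Actb, the mRNA of β-actin, gave the control library, called the Actb library here. Oligonucleotides against Malat1, a nuclear long noncoding RNA, and against Tfrc, the mRNA of the transferrin receptor, gave the Malat1 library and the Tfrc library. The cells and their treatment were otherwise the same in the labels, and no library of the RNA before recovery was analysed here. Each condition had 1 library, so no difference has a replicate check and no test between conditions was possible.

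The products of these genes act in chromatin, in RNA binding and in signalling. Dppa2 and Dppa4 form a complex on chromatin that activates genes of cleavage-stage embryos and keeps CpG-rich promoters free of DNA methylation. Utf1 is a chromatin protein of developmental promoters, and Dppa3 (Stella) protects the early embryo's genome during demethylation. Dppa5a carries a KH domain, a fold that binds RNA, Lin28a blocks the maturation of let-7 microRNAs, and L1td1 is an RNA-binding protein derived from a LINE-1 retrotransposon. Tdgf1 (Cripto) is a co-receptor of Nodal, and Gdf3 is a secreted ligand related to Nodal. All are expressed in pluripotent cells, and their mRNAs are not targets of the oligonucleotides.

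The libraries held 10405209 counts (the Actb library), 10078439 counts (the Malat1 library) and 14553941 counts (the Tfrc library). A gene could be counted under its Ensembl identifier (Ensembl-ID counts) and again under the reference name Genome (Genome counts). Genome counts took 5.25% of the Actb library, 19.0% of the Malat1 library and 15.1% of the Tfrc library, and Lars2 alone took 32.0%, 17.0% and 22.2%. The share of a gene is its summed counts per 1000000 counts of the library (CPM), and a fold is the ratio of 2 shares, with a 95% interval from the counts. Intervals cover counting error only, because each condition had 1 library. The cDNA was amplified and the reads carry no molecular identifiers, so counts need not be separate molecules and the intervals may be too narrow. Among genes that reached 10 counts in each library of a comparison, the median gene had a fold of 1.82 in Malat1 over Actb and of 1.56 in Tfrc over Actb, so each member is also placed among all genes. Of the targets, Malat1 had a fold over Actb of 5.81 in its own library and of 3.84 in the Tfrc library (99.0% and 97.0% of genes lower). Tfrc had 2.69 in its own library and 2.32 in the Malat1 library (88.2% and 69.7% lower). Actb took 73038 CPM of its own library, 889 of the Malat1 library and 924 of the Tfrc library. Shares are of recovered RNA, so a fold does not measure expression in the cells. In bulk lysates, fewer cells with an RNA and less RNA per cell cannot be told apart. The labelled cell type was checked with Pou5f1 (3875, 7983 and 6368 counts in the Actb, Malat1 and Tfrc libraries) and Sox2 (1309, 2998 and 3587 counts), both abundant. The other cell types' marker lists summed to between 14.0 CPM (epiblast and early germ layer markers in the Actb library) and 468 CPM (fibroblast markers in the Malat1 library, of which Fn1 made 447 CPM). Cdx2, which defines trophectoderm, had 2, 0 and 1 counts. The 10 trophectoderm markers, Cdx2 among them, nevertheless summed to 570, 1021 and 1274 counts, of which Tead4 had 386, 646 and 755. The primitive endoderm markers summed to 1024, 2653 and 2949 counts, of which Lama1 had 711, 1915 and 2055. The part of such cells in the results was not tested.

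Sequence is shown where it bears on which gene a read can be counted for, and for the genes of highest and lowest GC content. Dppa5a has a neighbouring copy, Dppa5b, whose coding sequence of 357 nt differs from that of Dppa5a at 9 positions (97.5% identity) and shares an identical stretch of 158 nt. The 30-nt coding windows with the most differences are shown 5′ to 3′ from NCBIM37, with the 5 differing positions in capitals. The Dppa5a window lies at chr9:78215573-78215602 on the minus strand and the Dppa5b window at chr9:78093661-78093690 on the plus strand.
Dppa5a: CtcaaaAcaAcaagAttcgggctaaatggA
Dppa5b: AtcaaaGcaTcaagGttcgggctaaatggT
The longest transcript of Utf1 had the highest GC content of the 9 genes (63.6%) and that of Dppa2 the lowest (43.9%). Their most and least GC-rich coding windows are at chr7:147130253-147130282 and chr16:48318747-48318776 on the plus strand, with G and C in capitals (26 and 7 of 30 bases).
Utf1: GGCCCtGGaCGtCCCCaGCGCCGCGGCCGC
Dppa2: aaCaaGaaGatCCtaaGaaaCtttaaaatt

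The 9 genes together took 1526 CPM in the Actb library (95% Wilson interval 1502 to 1550), 2079 in the Malat1 library (2051 to 2107) and 1972 in the Tfrc library (1950 to 1995). Both target libraries were above the control, by 1.36-fold (1.33 to 1.39) and 1.29-fold (1.27 to 1.32). The median gene was higher still, at 1.82 and 1.56, so the sum rose less than a typical gene. Most of the members' difference from the control was in Tdgf1, which made 32.3%, 45.2% and 46.2% of their counts. Without Tdgf1, left out after its values were seen, the sums were 1034, 1139 and 1062 CPM, and the folds were 1.10 (1.07 to 1.13) and 1.03 (1.00 to 1.05).

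**Figure D1:**
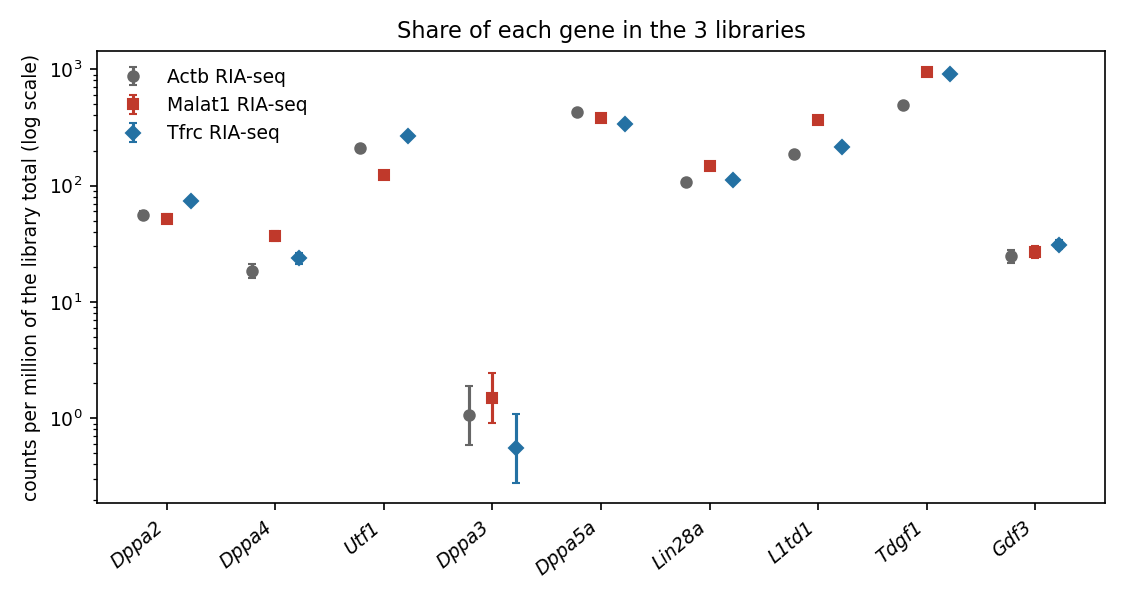
Share of each of the 9 genes in the Actb library (circles), the Malat1 library (squares) and the Tfrc library (diamonds), as CPM on a log axis, with 95% Wilson intervals that cover counting error only. Tdgf1 lies between 492 and 940 CPM and Dppa3 between 0.550 and 1.49, and the square of Utf1 lies below its circle while the diamond lies above it.

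Levels of different genes were compared as Ensembl-ID CPM per kb of exon. By this measure Dppa5a was the highest in every library (693, 620 and 543 in the Actb, Malat1 and Tfrc libraries), followed by Tdgf1 (249, 472 and 458). Dppa3 was the lowest, at 1.08, 1.67 and 0.616. Utf1 came after Tdgf1 in the Actb library (172) and in the Tfrc library (218), but in the Malat1 library (98.4) it lay below L1td1 (108), by a ratio of 1.10 (1.03 to 1.18). Lin28a and Dppa2 in the Actb library (30.1 and 27.4, ratio 1.10, 0.993 to 1.22) did not differ beyond counting error. Neither did Gdf3 and Dppa4 in the Actb library (ratio 1.00, 0.829 to 1.21) or in the Tfrc library (1.06, 0.915 to 1.23). In the Malat1 library the same pair was apart, with Dppa4 at 18.3 and Gdf3 at 11.7 (ratio 1.56, 1.32 to 1.85).

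In Malat1 over Actb the folds of the 9 genes ran from 0.582 (Utf1) to 1.99 (Dppa4), with a median of 1.38 against 1.82 over 14572 genes. None was at least 2-fold higher, where 42.1% of all genes were, and none was at least 2-fold lower, where 0.954% were. Dppa4 (1.99) and L1td1 (1.98) lay just under the 2-fold line, and 6 of the 9 lay below the median gene. The interval was wholly above 1 for 4 members (74.6% of all genes) and wholly below 1 for 2 (4.66% of all genes), Utf1 and Dppa5a. In Tfrc over Actb, 8 members had at least 10 counts in both libraries. Their median was 1.26 against 1.56 over 14691 genes, 7 of 8 lay below the median gene, none was at least 2-fold higher (28.6% of all genes) and none at least 2-fold lower (0.388%). The interval was wholly above 1 for 6 of them (69.4% of all genes) and wholly below 1 for 1, Dppa5a (3.88% of all genes). Both comparisons share the Actb library.

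**Figure D2:**
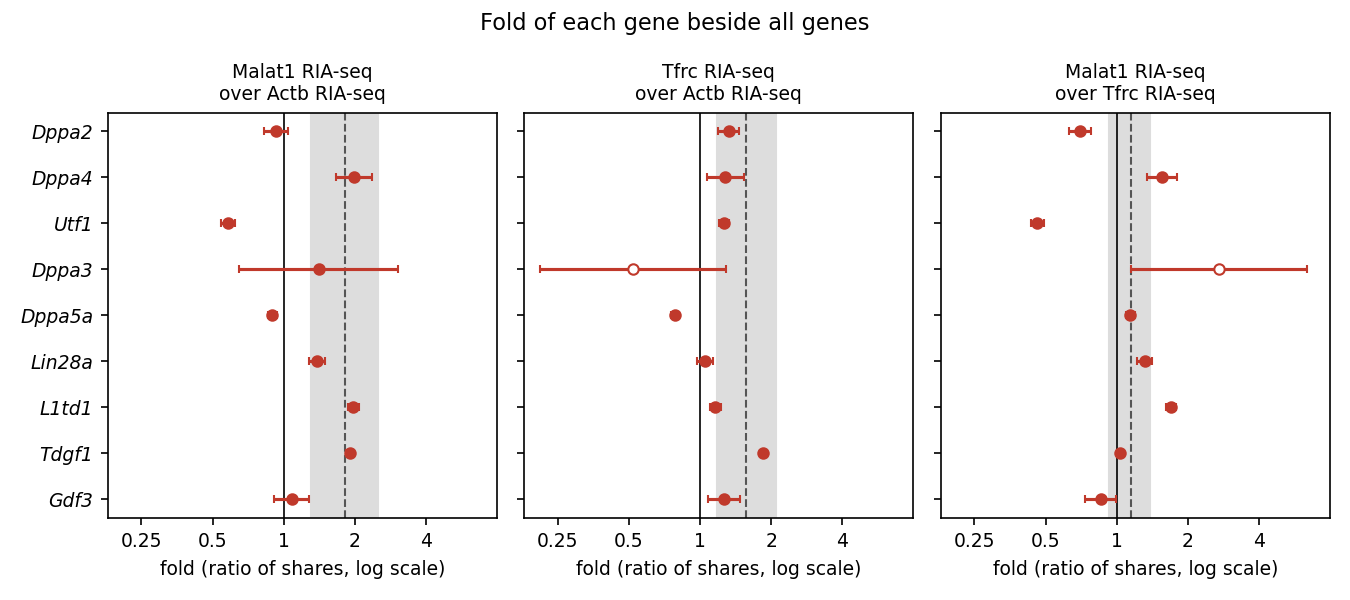
Fold of each gene (ratio of shares, log axis) in the 3 comparisons, with 95% counting intervals. Dashed lines and grey bands are the median and the middle 50% of all genes that reached 10 counts in each library, the solid line is a fold of 1, and open circles mark Dppa3 where a library had under 10 counts. Utf1 is the leftmost point of the Malat1 over Actb panel, at 0.582.

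Scaling changed these directions. With the median gene set to 1, 7.38% of genes were at least 2-fold higher and 8.21% at least 2-fold lower in Malat1 over Actb, in place of 42.1% and 0.954%, and in Tfrc over Actb 6.90% and 3.85% in place of 28.6% and 0.388%. The members' medians then fell below 1, to 0.759 and 0.810. Relative to the median gene, L1td1 was at 1.09 (1.03 to 1.15) and Tdgf1 at 1.05 (1.01 to 1.09) in the Malat1 library. Dppa4 was at 1.10 there, with an interval that includes 1 (0.921 to 1.30). Of the 8 members in the Tfrc library only Tdgf1 was above 1, at 1.19 (1.15 to 1.23).

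Of the chromatin proteins, Dppa2 and Dppa4 are neighbours on chromosome 16. Dppa4 spans chr16:48283848-48294405 and Dppa2 chr16:48310590-48319836 on the same strand, 16184 nt further on, each with 7 exons in the annotation. Dppa2 had 583 counts in the Actb library, 523 in the Malat1 library and 1079 in the Tfrc library, or 56.0, 51.9 and 74.1 CPM. Dppa4 had 192, 371 and 344 counts, or 18.5, 36.8 and 23.6 CPM. Dppa2 was thus highest in the Tfrc library and Dppa4 in the Malat1 library.

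In Malat1 over Actb the fold of Dppa2 was 0.926 (0.823 to 1.04), and 8.60% of genes were lower. That of Dppa4 was 1.99 (1.68 to 2.37), and 57.7% of genes were lower. The fold of Dppa4 was 2.15 times that of Dppa2 (1.75 to 2.66), a ratio that no scaling of the libraries changes. In Tfrc over Actb the folds of the pair, 1.32 (1.20 to 1.46) and 1.28 (1.07 to 1.53), did not differ beyond counting error (ratio 0.968, 0.790 to 1.19). Dppa2 has a pseudogene on chromosome 19, Gm9788, that shares 906 nt at 99.3% identity and had 102, 87 and 142 counts. How reads that match both were counted is not given in the sources used here.

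Utf1, at chr7:147129688-147131011 with 2 exons and introns of 97 nt in all, had 2206 counts in the Actb library, 1244 in the Malat1 library and 3901 in the Tfrc library. Its shares were 212, 123 and 268 CPM, so the Malat1 library was below the control and the Tfrc library above it. The fold was 0.582 (0.543 to 0.624) in the Malat1 library, where 1.65% of genes were lower, and 1.26 (1.20 to 1.33) in the Tfrc library, where 31.0% were lower. With the median gene set to 1 these were 0.320 and 0.811, both below 1. Directly between the target libraries, the Malat1 library was at 0.461 of the Tfrc library (0.432 to 0.491), and Utf1 was the only member at least 2-fold lower in that comparison, where 1.92% of 16430 genes were. None of the 8 was at least 2-fold higher there (4.35% of genes). An interval wholly below 1 in the Malat1 library and wholly above 1 in the Tfrc library was found for 95 of 14528 genes, or 0.654%. Utf1 shared no stretch of 100 nt at 80% identity with the exons of another gene.

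Dppa3, at chr6:122576428-122580290, was near the limit of detection. It had 11 counts in the Actb library, 15 in the Malat1 library and 8 in the Tfrc library, or 1.06, 1.49 and 0.550 CPM, where 3 counts correspond to between 0.206 and 0.298 CPM. The fold in Malat1 over Actb, 1.41, had an interval of 0.647 to 3.07, and that in the Tfrc library, 0.520, one of 0.209 to 1.29. No difference from the control was detectable at this depth.

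Among the RNA-binding proteins, Dppa5a at chr9:78214859-78215984 had 4464 counts in the Actb library, 3873 in the Malat1 library and 4894 in the Tfrc library. Its shares of 429, 384 and 336 CPM were highest in the control. It was the only member below 1 in both target libraries, at 0.896 (0.858 to 0.935) and 0.784 (0.753 to 0.816), where 7.89% and 3.97% of genes were lower. Dppa5b, at chr9:78093301-78094403 on the other strand, had 1544, 1679 and 2027 counts. Its part of the counts of both genes was 25.7%, 30.2% and 29.3%, and its fold was higher than that of Dppa5a by 1.25 times (1.16 to 1.36) in the Malat1 library and 1.20 times (1.11 to 1.29) in the Tfrc library. Counted together, so that a read exchanged between the pair makes no difference, both genes were at 0.954 (0.920 to 0.990) and 0.824 (0.796 to 0.853). Other genes that share sequence with Dppa5a were not added, of which Pigp (415 nt at 95.7% identity) had the most counts, 149, 189 and 260.

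Lin28a, at chr4:133559245-133574756, had 1106, 1479 and 1626 counts in the Actb, Malat1 and Tfrc libraries, or 106, 147 and 112 CPM. The Malat1 library was above the other libraries, with a fold of 1.38 over the control (1.28 to 1.49). The Tfrc library did not differ from the control beyond counting error (1.05, 0.974 to 1.13). Both folds of Lin28a were below the median gene, with 28.7% and 15.9% of genes lower. Its paralog Lin28b, also a let-7 inhibitor, had 196, 339 and 646 counts and a different order, with the Tfrc library the highest. The fold of Lin28b was 1.29 times that of Lin28a in the Malat1 library (1.07 to 1.57) and 2.24 times in the Tfrc library (1.88 to 2.68).

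L1td1, at chr4:98393425-98405171, had 1936, 3706 and 3146 counts, or 186 CPM in the Actb library, 368 in the Malat1 library and 216 in the Tfrc library. It was highest in the Malat1 library, with folds of 1.98 over the Actb library (1.87 to 2.09) and 1.70 over the Tfrc library (1.62 to 1.78). These lay above 56.9% and 90.6% of genes. In Tfrc over Actb L1td1 was at 1.16 (1.10 to 1.23), above 23.7% of genes.

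Of the signalling proteins, Tdgf1 at chr9:110842114-110848662 had 5123 counts in the Actb library, 9472 in the Malat1 library and 13257 in the Tfrc library. Its shares of 492, 940 and 911 CPM were similar in the target libraries and lower in the control. The folds over the Actb library were 1.91 (1.85 to 1.97) and 1.85 (1.79 to 1.91). The former lay above 53.9% of genes. The latter was the highest of the members in the Tfrc library, above 65.4% of genes.

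Gdf3, at chr6:122555421-122560105, had 256, 268 and 452 counts, or 24.6, 26.6 and 31.1 CPM. The Malat1 library did not differ from the control beyond counting error (1.08, 0.911 to 1.28), and the Tfrc library was at 1.26 (1.08 to 1.47). Both folds of Gdf3 were below the median gene, with 14.5% and 30.8% of genes lower. The fold of Tdgf1 was 1.77 times that of Gdf3 in the Malat1 library (1.48 to 2.10) and 1.47 times in the Tfrc library (1.25 to 1.71), although both act in the Nodal pathway. Part of the exons of Gdf3 resembles (100 nt or more at 80% identity) those of 1810 other genes, so its counts may hold reads of other transcripts.

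Genome counts made a small part of the members' counts, 1.56% in the Actb library, 3.93% in the Malat1 library and 2.87% in the Tfrc library. What a Genome count is was not given in the sources used here. Over all genes with introns and at least 100 counts in every library, its share was larger where the annotated introns were longer. In the Malat1 library the median was 1.47% for introns of up to 1000 nt in all and 37.3% for more than 20000 nt. Dppa5a, with 507 nt of introns, had 0.0448%, 0.155% and 0.0409% in the Actb, Malat1 and Tfrc libraries, and Utf1 had 0.635%, 2.17% and 0.410%.

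Apart from Dppa3, whose Genome counts were 1 of 11 in the Actb library and 0 in the other libraries, the largest Genome shares were those of Dppa4 and Dppa2. For Dppa4, with 9024 nt of introns, it was 5.21% in the Actb library (2.85 to 9.32), 23.7% in the Malat1 library (19.7 to 28.3) and 14.8% in the Tfrc library (11.5 to 19.0). The median of its intron class (5000 to 10000 nt) was 4.30%, 11.1% and 8.97%. Dppa2 was at 4.80%, 15.7% and 7.97%. Tdgf1 was at 2.79% (2.37 to 3.28), 3.34% (2.99 to 3.72) and 3.12% (2.83 to 3.42), intervals that overlap between the libraries.

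**Figure D3:**
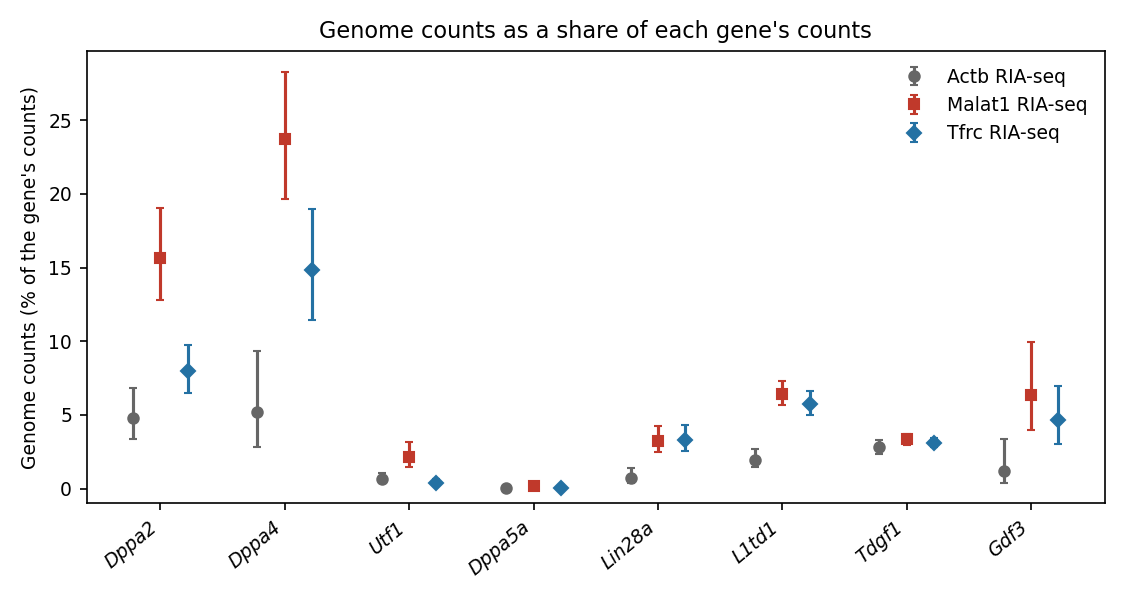
Genome counts as a percentage of each gene's summed counts in the Actb library (circles), the Malat1 library (squares) and the Tfrc library (diamonds), with 95% Wilson intervals. Dppa3 is not drawn because it had 11, 15 and 8 counts in all. Dppa4 reaches 23.7% in the Malat1 library and Dppa5a stays at or below 0.155%.

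Genome counts were also compared apart from the sum, and over all genes their median fold was 3.60 in Malat1 over Actb and 2.86 in Tfrc over Actb. Of the 5 members with at least 10 Genome counts in both libraries, 4 were at least 2-fold higher in Malat1 over Actb (88.6% of all genes) and 4 in Tfrc over Actb (79.6%). Dppa4 went from 10 Genome counts in the Actb library to 88 in the Malat1 library, a fold of 9.09 (4.72 to 17.5) that exceeded 99.4% of genes. Utf1 had 14, 27 and 16 Genome counts, with folds of 1.99 (1.04 to 3.80) and 0.817 (0.399 to 1.67), the latter not distinguishable from 1. Relative to the median gene's Genome fold these were 0.553 (0.290 to 1.05) and 0.286 (0.139 to 0.585). From Ensembl-ID counts alone, the members' medians were 1.35 and 1.18, beside 1.41 and 1.26 over all genes, and Utf1 was at 0.573 (0.534 to 0.615) and 1.27 (1.20 to 1.34).

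Transcript length moved with the fold over all genes. In Malat1 over Actb the median fold was 1.18 for transcripts of up to 1000 nt and 2.13 above 5000 nt, and in Tfrc over Actb 1.07 and 1.85. The members' longest transcripts ran from 619 nt (Dppa5a) to 3505 nt (Lin28a). Against genes of its own length class, Utf1 in the Malat1 library was at 0.393 of the class median, with 2.01% of the class lower. Dppa2 was at 0.559, Gdf3 at 0.609, Lin28a at 0.717 and Dppa5a at 0.762. In their classes 8.88%, 13.1%, 20.4% and 29.5% of genes were lower. Within these classes 5 of 9 members were below the median in the Malat1 library and 7 of 8 in the Tfrc library, the exception being Tdgf1 at 1.31 of its class median. The part of length in the folds was not tested.

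**Figure D4:**
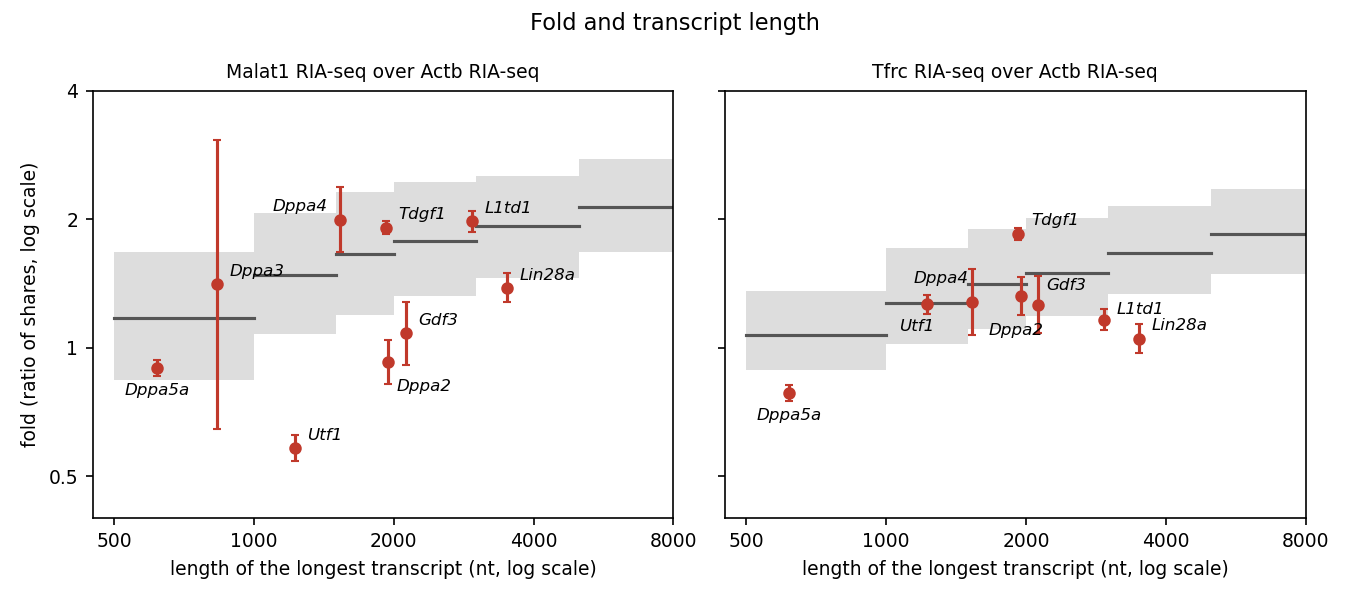
Fold of each gene over the Actb library (log axis) against the length of its longest transcript (nt, log axis), with 95% counting intervals. Grey bands and dark lines are the middle 50% and the median of all genes in 6 length classes, the last of which runs on past the axis. Utf1, Dppa2, Gdf3 and Lin28a lie below the bands of their classes on the left, and Tdgf1 above its class median in both panels.

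Gdf3 and Dppa3 lie 16322 nt apart in a cluster on chromosome 6 that also holds Nanog, a core pluripotency factor, and Slc2a3, a glucose transporter. Nanog had 8043, 4257 and 16082 counts in the Actb, Malat1 and Tfrc libraries and folds of 0.546 (0.527 to 0.567) and 1.43 (1.39 to 1.47), the same order of libraries as Utf1. The fold of Nanog was 0.939 times that of Utf1 in the Malat1 library (0.867 to 1.02). The 2 genes differed beyond counting error in Tfrc over Actb (1.13 times, 1.07 to 1.20) and in Malat1 over Tfrc (0.830 times, 0.772 to 0.892). Slc2a3, 13175 nt beyond Nanog, had 4540, 10089 and 8851 counts and a fold of 2.29 in the Malat1 library (2.22 to 2.38). It was 2.12 times that of Gdf3 (1.78 to 2.53). Necap1 was at 2.17 and 1.10, Apobec1 at 1.72 and 1.69, Mfap5 at 1.77 and 1.58 and Foxj2 at 1.45 and 1.44. Genes of this cluster thus did not share a fold in the Malat1 library.

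**Figure D5:**
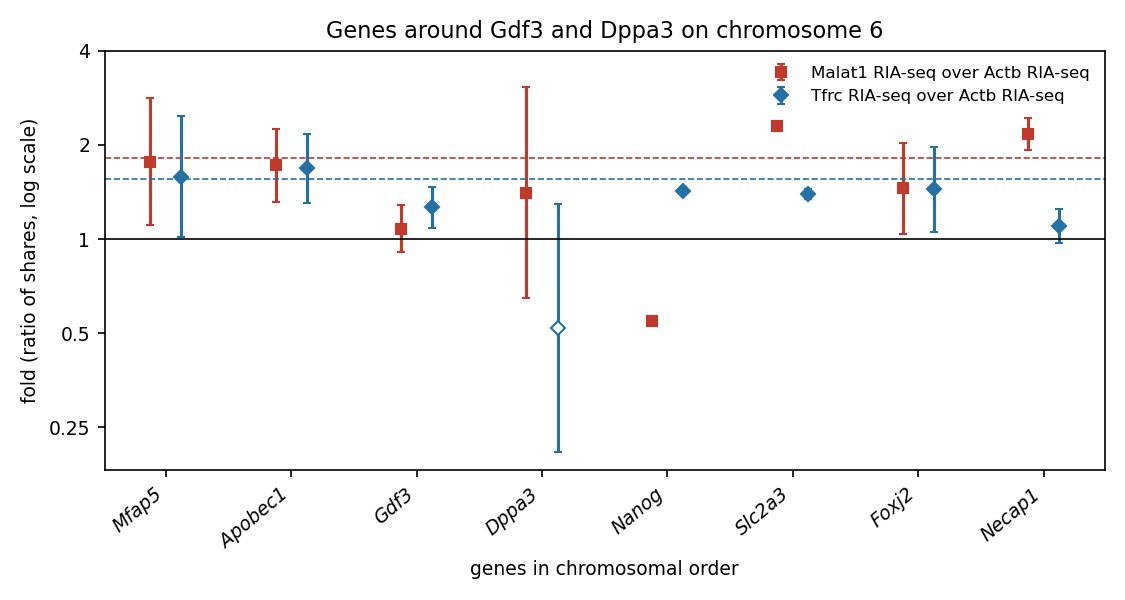
Fold over the Actb library (log axis) of the genes around Gdf3 and Dppa3 in chromosomal order, for the Malat1 library (squares) and the Tfrc library (diamonds), with 95% counting intervals. Dashed lines are the medians of all genes, 1.82 and 1.56, and the open diamond marks Dppa3, with under 10 counts. Nanog is the lowest square, at 0.546, and Slc2a3 the highest, at 2.29.

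Lists of genes that act with the members were described in the same way. Of 28 core pluripotency and ES cell genes, 8 were at least 2-fold higher in Malat1 over Actb (42.1% of all genes) and 0 in Tfrc over Actb (28.6% of all genes), with medians of 1.68 and 1.36. In the Malat1 library they ran from Nanog to Pecam1 (2.57), a cell adhesion protein. Of 21 genes of the Nodal and activin pathway, 16 had at least 10 counts in both libraries, and 7 and 4 of these were at least 2-fold higher, with medians of 1.88 and 1.69. There Skil, a repressor of Smad proteins, was the lowest (0.872 and 1.16), and Smad3, a signal transducer, was the highest in the Malat1 library (2.83). Of 17 genes of the Lin28 and let-7 pathway, 8 and 5 were at least 2-fold higher, with medians of 1.96 and 1.49, and the let-7 target Hmga2 was the highest in the Malat1 library (4.23). Of 14 chromatin regulators, 2 and 3 were at least 2-fold higher, with medians of 1.49 and 1.31, and Jarid2, a Polycomb cofactor, was the highest in the Malat1 library (3.16). No gene of these lists was at least 2-fold lower in either comparison, where 0.954% and 0.388% of all genes were. Among 85 listed genes with at least 50 counts in every library, those nearest to the members' median pair of folds over the 3 libraries were Dicer1 (1.36 and 1.22), Igf2bp1 (1.44 and 1.27) and Ezh2 (1.27 and 1.23), at distances of 0.0489, 0.0646 and 0.122 on the log2 scale.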

How the data were processed

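RIA-seq of E14 ES cells was analysed in 3 libraries, grouped by the antisense oligonucleotides in their labels. The authors deposited raw read counts per gene, whole numbers without normalization. Bowtie 0.12.7 and the builds mm9 and NCBIM37 come from the submitters' processing notes. The counter and the handling of duplicates and multiple matches are not given in the sources used here. Reads lost or shared there would move the counts of genes with copies.

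Ensembl-ID and Genome counts were summed and divided by the library total, with a pseudocount of 0. Folds have 95% intervals on the log scale and shares Wilson intervals, for counting error only. A minimum of 10 counts in each library was set for distributions. The GENCODE annotation of NCBIM37 held 98.6% of the identifiers. Sequence shared between exons was found by blastn at 80% identity over 100 nt. The fold computation was tested on simulated counts. The members and lists were chosen with earlier results of these data known. Named genes were the members, the highest and lowest gene of each list, the neighbours on chromosome 6, the 3 genes most like the members, the targets and Pou5f1, Sox2 and Nanog. Lin28b, Dppa5b, Gm9788, Cdx2, Tead4, Lama1, Zfp42, Fn1 and Lars2 were named outside this rule, after their values were seen. Alternatives were other scalings (median ratio, the TMM factors of edgeR 4.0.16, the 75th percentile, totals without the 3 targets or the genes with most counts), a pseudocount of 1, Ensembl-ID or Genome counts alone, minimums of above 0 and of 50 counts and the other target library as control. The versions used were R 4.3.3, BLAST+ 2.17.0, bedtools 2.31.1, pandas 2.3.3, matplotlib 3.10.9, scipy 1.17.1, numpy 2.4.6 and Python 3.11.15.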

Additional observations from a re-analysis of the deposited data

Results flagged for a closer look

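Utf1 was below the control in the Malat1 library (0.582) and above it in the Tfrc library (1.26), opposite directions in the only library of each condition, and the Malat1 library was at 0.461 of the Tfrc library. Nanog went the same way (0.546 and 1.43), at 0.382 of the Tfrc library. The pattern was not particular to these genes. Zfp42, an ES cell marker (0.925 and 1.42), and Skil (0.872 and 1.16) also had intervals on opposite sides of 1. In all, 95 of 14528 genes (0.654%) did so in this order. These differences were not tested, since each condition had 1 library. With the median gene set to 1, Utf1 and Nanog were both below 1 in the Tfrc library as well, at 0.811 and 0.917.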

How the results depend on the processing

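No paired analysis was possible because each condition had 1 library, and for the same reason no replicate could be left out. Of 250 recomputed folds of single members, 186 stayed on the same side of 1 and 64 crossed it, 18 in Malat1 over Actb, 33 in Tfrc over Actb and 13 in Malat1 over Tfrc. Of these, 43 of 100 crossed under the 4 scalings by median ratio, TMM, the 75th percentile and totals without the genes with most counts, 13 of 34 from Genome counts and 6 of 16 with the other target library as control. Lin28a in Malat1 over Actb, at 1.38, was as low as 0.749, and Dppa2 there, at 0.926, reached 3.02 from Genome counts. Of the folds past 2 in either direction, those that crossed 1 were Utf1 in Malat1 over Tfrc, at 2.44 from Genome counts over all counts and 1.93 over the Genome total. In Malat1 over Actb the members' median of 1.38 became 0.759 (median ratio), 0.749 (TMM), 0.771 (75th percentile), 0.842 (totals without the genes with most counts), 3.02 (Genome counts), 0.835 (Genome counts over their own total), 1.57 (Ensembl-ID counts over their own total), 1.23 (at least 50 counts) and 1.09 (the Tfrc library as control). Members at least 2-fold lower, 0 in the report, were 2 under the median ratio and 2 under TMM (8.21% and 8.50% of all genes). They were 1 under the 75th percentile and 1 with totals without the genes with most counts (7.89% and 5.85%). With the Tfrc library as control 1 member was at least 2-fold lower (1.92% of all genes). Members at least 2-fold higher were 4 for Genome counts (88.6% of all genes) and 1 for Genome counts over their own total (2.41%). For Ensembl-ID counts over their own total they were 2 (34.5%). In Tfrc over Actb the median of 1.26 became 0.810, 0.783, 0.813 and 0.889 under the 4 scalings in the same order, 2.20 for Genome counts, 0.764 over their own total and 0.922 with the Malat1 library as control. There 1 member was at least 2-fold lower under TMM (4.62% of all genes) and 1 from Genome counts over their own total (8.74%). From Genome counts 4 members were at least 2-fold higher (79.6% of all genes). From Ensembl-ID counts over their own total 1 was (19.7%), and 1 was with the Malat1 library as control (1.92%). In Malat1 over Tfrc the median of 1.09 became 0.943, 0.952, 0.938 and 0.943 under the same scalings, 1.38 for Genome counts, 1.14 for Ensembl-ID counts over their own total and 1.14 with a minimum above 0. Utf1 remained at least 2-fold lower (0.457% to 8.25% of all genes over the settings) except from Genome counts on either total. From those counts 0 members were, beside 1.64% (over all counts) and 4.07% (over the Genome total) of all genes. From Genome counts over all counts 2 members were at least 2-fold higher (9.86% of all genes), and 1, Dppa3, with a minimum above 0 (9.13%). The scalings that set the median gene near 1 lower every fold by construction, and for the other settings the cause was not tested. With 8 to 15 counts, Dppa3 was the member most limited by depth.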
